A study of Mus musculus with 79 samples.

Results

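The genes described here are 42 genes of G2 phase and mitosis, taken by name from a deposited table of 20465 mouse genes in which all 42 were present. They code for cyclins and kinases of mitotic entry, the ubiquitin machinery of anaphase and its target securin, the spindle checkpoint and kinetochore, the chromosomal passenger complex, spindle motors and microtubule proteins, cytokinesis proteins and 2 proteins of chromosome structure. All 42 passed the filter on low values, a level of at least 1 TPM (a measure of transcript abundance scaled for length and library) in at least 4 libraries, and so were among the 10672 genes tested. Gene symbols are in capitals, as in the table.

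A cell enters mitosis when cyclin B binds and activates the kinase CDK1, with the phosphatases CDC25B and CDC25C and the kinases PLK1 and Aurora A acting on the way in. The spindle checkpoint then holds back the anaphase-promoting complex until all chromosomes are attached, after which CDC20 and UBE2C direct the destruction of securin and the cyclins. Transcription of most of these genes peaks in G2 and mitosis. It runs largely through the MuvB complexes: with the repressors E2F4 and p130 or p107 (the DREAM complex) they keep the genes off in resting or p53-activated cells, and with MYBL2 and FOXM1 they turn them on. In activated T cells the genes mark cells that are dividing.

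RNA came from mouse T cells that carried the dye CFSE, which is diluted at each division, and that were cultured towards T helper 17 cells in IL-23, IL-6 and IL-1b (Th17p, the pathogenic type) or with TGFb and IL-6 (Th17n, the non-pathogenic type). Each type received EGCG (epigallocatechin gallate, a green tea polyphenol) at 20 µM against its solvent DMSO, or DHEA at 50 µM against its solvent methanol. RNA was taken from cells sorted for exactly 1 division (Div.1) and from unsorted cells (Total), which hold the sorted ones among them. Of the 16 groups, 14 held 5 libraries, and the DMSO Div.1 groups of Th17p and of Th17n held 4. That makes 78 libraries without the one from well A4, which was set aside because its labelled type differed from that of the other wells in its row. The series design states 5 mice per condition, but no label ties a library to a mouse, and p-values measure the spread between libraries. No label gives strain or age of the mice or the hours of culture. The 2 compounds differed in dose and solvent, so their values are set side by side without a test between them.

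All 8 T and Th17 markers reported (CD3E, CD3D, CD4, CD5, IL17A, IL17F, CCR6 and IL23R) had medians over the libraries of at least 1 TPM, whereas all 6 B cell and all 6 myeloid markers in the table had medians under 1 TPM. Of 9 markers of CD8 T and NK cells 5 had medians under 1 TPM. Among these, CD8A reached 0.557 TPM at most, and KLRB1C, NCR1 and GZMA were at 0 in 71, 74 and 75 of the 78 libraries. The summed level of the 9 had a higher mean with EGCG in Th17p cells and with DHEA in both types, in both sorts. With EGCG in Th17n cells it averaged 18.7 TPM against 17.5 TPM with DMSO in Total cells, and 19.2 TPM against 23.1 TPM in Div.1 cells. In Th17p Div.1 cells it ran from 24.7 to 35.2 TPM with EGCG and from 15.6 to 21.8 TPM with DMSO. Ranges in Total cells are given beside the results. Between 9338 and 9845 genes in a library were at 1 TPM or more, and depth was unknown, since the table held TPM alone. In such bulk samples fewer cells in G2 and mitosis and less RNA per cell cannot be told apart.

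Promoter windows, 250 bases before to 50 bases after the transcription start in RefSeq on GRCm38.p6, were found for 35 of the 42 genes. The other 7, AURKB, CCNA2, CDC25C, FOXM1, INCENP, KIF20A and TPX2, were not in the promoter table. The cell cycle genes homology region (CHR), searched as TTTGAA or TTCGAA on both strands, occurred in windows of 27 of the 35 genes (77.1%), against 1340 of 8256 tested genes with a window (16.2%) and 21.7% of all 27025 genes with a window. The CCAAT box, searched as CCAAT on both strands, occurred in 28 of the 35, against 43.5% of tested genes and 41.1% of all genes. Both motifs together were found for 24 of the 35 genes (68.6%), against 8.16% of tested genes and 9.65% of all. The CHR began before the transcription start in 13 of the 27 genes and only in the 50 bases after it in the other 14, among them PLK1, AURKA, CENPA and HMMR. This split depends on the RefSeq start used. For some genes, such as KIF2C among the 13 and CDCA8 among the 14, that start lies inside the gene as annotated on mm10. A match is a run of letters and not a bound site.

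The last 150 bases before the transcription start follow, 5′ to 3′ on the gene's own strand, for 5 genes that fell with both compounds, taken from the 13 with a CHR before the start. Those of GTSE1 and PTTG1 come after them because these genes went the other way, and they were picked after their values were seen. Capitals mark complete CHR and CCAAT matches on either strand.
CDC20, chr4:118437344-118437493, minus strand: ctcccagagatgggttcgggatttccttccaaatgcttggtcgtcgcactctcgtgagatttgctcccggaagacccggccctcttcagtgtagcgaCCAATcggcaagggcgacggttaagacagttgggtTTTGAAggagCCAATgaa
UBE2C, chr2:164769779-164769928, plus strand: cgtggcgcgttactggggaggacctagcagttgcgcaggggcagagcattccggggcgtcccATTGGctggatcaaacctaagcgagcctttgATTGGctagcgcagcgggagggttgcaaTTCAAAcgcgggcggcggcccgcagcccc
CDK1, chr10:69352913-69353062, minus strand: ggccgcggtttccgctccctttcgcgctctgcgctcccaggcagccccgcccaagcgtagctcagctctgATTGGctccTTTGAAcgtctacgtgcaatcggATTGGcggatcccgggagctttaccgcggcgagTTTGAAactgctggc
CCNF, chr17:24251410-24251559, minus strand: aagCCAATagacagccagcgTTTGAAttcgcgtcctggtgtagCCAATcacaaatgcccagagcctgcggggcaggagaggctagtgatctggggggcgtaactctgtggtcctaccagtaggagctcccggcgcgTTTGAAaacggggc
PRC1, chr7:80294326-80294475, plus strand: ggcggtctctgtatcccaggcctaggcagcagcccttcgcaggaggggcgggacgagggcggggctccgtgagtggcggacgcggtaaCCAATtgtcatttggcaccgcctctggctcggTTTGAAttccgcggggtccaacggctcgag
GTSE1, chr15:85859557-85859706, plus strand: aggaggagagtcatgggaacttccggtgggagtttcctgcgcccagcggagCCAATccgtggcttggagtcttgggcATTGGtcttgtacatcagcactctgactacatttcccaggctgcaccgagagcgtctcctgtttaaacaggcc
PTTG1, chr11:43425982-43426131, minus strand: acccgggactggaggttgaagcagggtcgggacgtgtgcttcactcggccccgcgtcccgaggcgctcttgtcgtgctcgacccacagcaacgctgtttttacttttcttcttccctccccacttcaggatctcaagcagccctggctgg
In CDC20, CDK1, CCNF and PRC1 the CHR nearest the start began 18, 15, 14 and 30 bases before it, and in UBE2C 29 bases before it, each with a CCAAT box farther upstream. PRC1 has a second start in the table, and from that start the CHR began 5 bases upstream. GTSE1 held CCAAT boxes and no match to the CHR forms searched, also in the window of its second start. PTTG1 held neither motif, but its printed stretch lies inside the gene as annotated on mm10 (chr11:43420250-43426251). Sequence before the 5′ end of that annotation was not searched for PTTG1. Forms of the CHR other than TTTGAA and TTCGAA were not searched. The 8 genes with no match to either were BIRC5, CCNB1, CENPE, GTSE1, MAD2L1, NEK2, NUSAP1 and PTTG1. Among these 8 were 3 genes that fell in all 8 compound comparisons below (BIRC5, CCNB1, NEK2), and also GTSE1, PTTG1 and NUSAP1, which fell in none.

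TPM are scaled for transcript length, so levels can be set between genes. Over the 78 libraries UBE2C, the ubiquitin-conjugating enzyme of the anaphase-promoting complex, had the highest mean level of the 42 at 598 TPM. BIRC5 (survivin, of the chromosomal passenger complex) followed at 383 TPM, CCNB1 (cyclin B1) at 276 TPM, CCNA2 (cyclin A2) at 260.3 TPM and CDC20 at 259 TPM. The lowest were KIF20B, a kinesin, at 6.04 TPM, CENPF, a kinetochore protein, at 6.92 TPM and ANLN (anillin) at 8.18 TPM. Replicates were close: the SD within groups on the log2(TPM + 1) scale had a median of 0.11 over the genes and was smallest for BUB3, at 0.061. CENPA (0.39) and above all AURKA (1.09) varied more. AURKA, which codes for Aurora A, ran from 0.848 to 67.3 TPM over the libraries and from 0.848 to 51.2 TPM within the Th17p EGCG Total group, so no change in it could be called in any compound comparison.

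Most of the genes fell with EGCG in Th17p cells. In Total cells 35 of the 42 fell and 1 rose, where 14.9% of the 10672 genes tested fell and 30.1% rose. In Div.1 cells 34 fell and 2 rose, where 11.9% of tested genes fell and 33.7% rose. The median log2 change of the 42 was -0.48 in Total and -0.47 in Div.1 cells, against 0.09 and 0.12 over all genes tested. Rescaling the libraries to a common median ratio, which moved that median by -0.065 and -0.10, turned the split of all called genes from 3208 higher and 1586 lower into 2506 and 2256 in Total cells, and from 3601 and 1270 into 2430 and 2241 in Div.1 cells. Of the 42, 38 then fell in each sort. Calls are at an adjusted p under 0.05 in limma with Benjamini-Hochberg adjustment over all genes, on the log2(TPM + 1) scale, which understates changes of genes at low TPM. The libraries of the groups did not overlap, all EGCG ones being lower, for 29 of the 42 genes in Total and 32 in Div.1 cells, against 10.8% and 10.4% of tested genes.

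The level averaged over the 42 genes was lower in these cells. The mean log2(TPM + 1) over the 42 genes was 5.54 ± 0.15 in Th17p EGCG Total libraries and 5.97 ± 0.061 in the DMSO ones (SD, n = 5 each), and the summed level was 3381 ± 277 TPM against 4530.2 ± 193 TPM. Of 12 genes of entry, 11 fell in Total and 11 in Div.1 cells. PLK1, the polo-like kinase (mm10 chr7:122159439-122169873), had 80.1, 80.6, 93.9, 96.04 and 109.6 TPM in EGCG Total libraries, against 155, 166, 167, 176 and 184 TPM in DMSO ones. Its groups did not overlap (log2 change -0.88 ± 0.065 SE, adjusted p = 1.28e-18). In Div.1 cells PLK1 had 94.8, 98.7, 109, 109.8 and 116 TPM with EGCG and 194, 195, 205 and 210.4 TPM with DMSO (log2 change -0.92 ± 0.069 SE, adjusted p = 3.04e-18). CCNB1 (mm10 chr13:100778650-100786570) had 166, 167, 197, 202 and 206 TPM in EGCG Total libraries and 303, 314, 332, 333 and 366 TPM in DMSO ones (log2 change -0.81 ± 0.07 SE, adjusted p = 7.01e-16). Every EGCG library lay under every DMSO library here too. CCNB2 (cyclin B2) averaged 83.1 ± 8.10 TPM with EGCG and 141 ± 3.40 TPM with DMSO (log2 change -0.76 ± 0.055 SE, adjusted p = 6.17e-19). NEK2, a centrosome kinase, and CDCA3, a trigger of mitotic entry, fell with log2 changes of -0.80 and -0.53 in Total cells. CDK1 (mm10 chr10:69335146-69352938), the kinase at the centre of entry, had a smaller change, with 106, 122, 122, 124 and 127 TPM in EGCG Total libraries and 136, 141, 144, 147 and 161 TPM in DMSO ones. Its groups were still apart (log2 change -0.27 ± 0.055 SE, adjusted p = 3.17e-05). CCNA2 ranged over 172 to 215 TPM with EGCG and 264 to 300.3 TPM with DMSO (log2 change -0.53 ± 0.058 SE, adjusted p = 6.35e-12). FOXM1, the factor that activates many of these genes, had 8.54, 8.80, 8.90, 9.79 and 10.1 TPM with EGCG and 11.2, 11.5, 12.4, 12.7 and 13.9 TPM with DMSO (log2 change -0.38 ± 0.08 SE, adjusted p = 5.82e-05). Of the phosphatases, CDC25B changed by -0.41 in Total and -0.85 in Div.1 cells and CDC25C by -0.56 and -0.49, all called. The gene of the 12 that was not called in either sort was AURKA. Its estimated change in Total cells, -1.07, was the largest decrease of the 12, with the wide spread between libraries given above.

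**Figure D1:**
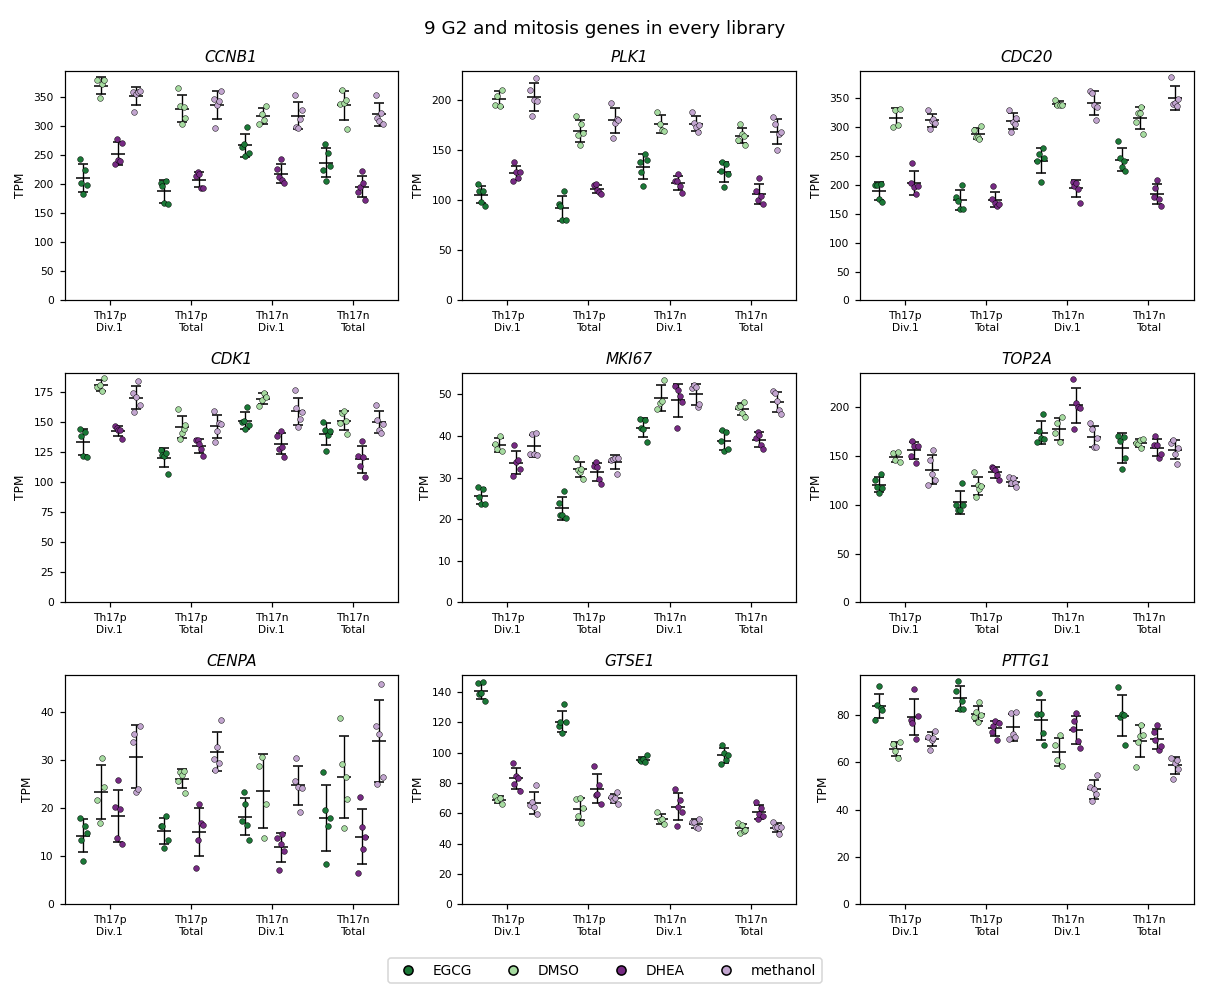
TPM (vertical axes, from 0) of 9 of the genes in every library, by cell type and sort on the horizontal axes, each compound left of its solvent; each point is 1 library, and bars give the mean ± SD of a group. CCNB1, PLK1 and CDC20 lie lower with either compound than with its solvent, while GTSE1 lies higher with EGCG, at 113 to 132 TPM in Th17p EGCG Total libraries against 53.3 to 70.03 TPM in the DMSO ones.

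Anaphase, checkpoint and spindle genes fell alongside in the EGCG-treated Th17p cells. CDC20, the activator of the anaphase-promoting complex (mm10 chr4:118432901-118437352), had 158, 158, 172, 178 and 199.9 TPM in EGCG Total libraries and 279, 283, 283, 294 and 302 TPM in DMSO ones (log2 change -0.74 ± 0.064 SE, adjusted p = 1.12e-15). The groups were separate. UBE2C changed by -0.33 in Total and -0.68 in Div.1 cells, both called. Of 8 checkpoint and kinetochore genes 6 fell in each sort, among them the checkpoint kinase BUB1B (-0.57 in Total, -0.58 in Div.1 cells) and CENPA, the histone H3 variant of centromeres (-0.76 and -0.67). BUB3, a checkpoint scaffold, had 224, 233, 239, 244 and 244 TPM in EGCG Total libraries and 226, 240.1, 246, 249 and 265 TPM in DMSO ones, which was not called (log2 change -0.048 ± 0.039 SE, adjusted p = 0.331). In Div.1 cells it was called at -0.28. All 4 passenger complex genes fell in both sorts, with Total changes of -0.41 for AURKB (Aurora B), -0.48 for BIRC5, -0.46 for CDCA8 (borealin) and -0.53 for INCENP, the complex's scaffold.

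Among 8 spindle genes 5 fell in each sort, with Total changes of -0.56 for TPX2, the Aurora A activator, -0.54 for KIF11, which pushes spindle poles apart, and -0.52 for HMMR, a spindle microtubule protein. All 5 cytokinesis genes fell in Total cells, including PRC1, which bundles midzone microtubules (-0.64), the kinesins KIF20A (-0.57) and KIF23 (-0.41), and ANLN (-0.57). In Div.1 cells ECT2, the exchange factor of the cleavage furrow, was not called (log2 change -0.068 ± 0.10 SE, adjusted p = 0.63). MKI67 (Ki-67, a coat of mitotic chromosomes) had 20.4, 21.01, 21.01, 23.8 and 26.7 TPM in EGCG Total libraries and 29.6, 31.4, 31.9, 32.1 and 34.8 TPM in DMSO ones (log2 change -0.49 ± 0.059 SE, adjusted p = 1.46e-10). All 5 of its EGCG libraries were lower. TOP2A, the topoisomerase that untangles sister chromatids, had 94.9, 94.9, 99.8, 100.1 and 123 TPM with EGCG and 108, 116, 119, 119.9 and 134 TPM with DMSO (log2 change -0.22 ± 0.063 SE, adjusted p = 0.00277). One EGCG library, replicate 4, stood above the other 4. The 4 genes not called in either sort were AURKA, the kinetochore motor CENPE (-0.16 in Total cells), the chromokinesin KIF4 (-0.14) and the microtubule bundler NUSAP1 (0.038).

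Markers of CD8 T and NK cells summed to 21.3 to 34.1 TPM in Th17p EGCG Total libraries and 10.2 to 15.5 TPM in DMSO ones, and myeloid markers to 0.323 to 2.05 TPM with EGCG and 0.107 to 0.422 TPM with DMSO. Their part in these results was not tested.

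Fewer of the genes were called with EGCG in Th17n cells. In Total cells 19 of 42 fell and 2 rose, where 13.5% of tested genes fell and 21.7% rose, with a median change of -0.17 against 0.054 over all genes. Without replicate 5 of the Th17n EGCG Total group 11 fell. In Div.1 cells 19 fell and 4 rose, where 6.77% of tested genes fell and 28.1% rose, with a median of -0.16 against 0.11. Rescaling shifted the median of all genes in that comparison by -0.11 and its called genes from 2999 higher and 723 lower to 1642 and 1671, and then 29 of the 42 fell and 1 rose. In Total cells it shifted the called genes from 2319 higher and 1441 lower to 1910 and 1911, with 27 of the 42 then lower and 1 higher. CCNB1 had 205, 224, 230.3, 254 and 269 TPM in Th17n EGCG Total libraries and 295, 337, 339.5, 345 and 362 TPM in DMSO ones (log2 change -0.51 ± 0.07 SE, adjusted p = 2.54e-08). The groups did not overlap for it. PLK1 had 114, 126, 129, 136 and 139 TPM with EGCG and 156, 160.3, 164, 166 and 176 TPM with DMSO (log2 change -0.35 ± 0.065 SE, adjusted p = 1.44e-05), and CDC20 ranged over 224 to 275 TPM with EGCG and 287 to 334 TPM with DMSO (log2 change -0.37 ± 0.064 SE, adjusted p = 3.48e-06). NEK2 and CCNB2 fell with log2 changes of -0.41 and -0.29. CDK1 had 126 to 149.5 TPM with EGCG and 139 to 159 TPM with DMSO in Total cells and was not called (log2 change -0.11 ± 0.055 SE, adjusted p = 0.116). In Div.1 cells its adjusted p was 0.0237, and the call was lost without any one of 3 of the 9 libraries. MKI67 changed by -0.25 in Total and -0.22 in Div.1 cells, both called. FOXM1 (-0.034 and -0.14), TOP2A (-0.054 and -0.033) and the kinesin KIF11 (-0.18 and -0.022) were called in neither sort. By role, 3 of 4 passenger complex genes and 6 of 12 entry genes fell in Total cells, against 2 of 8 spindle genes and 3 of 8 checkpoint and kinetochore genes. In Div.1 cells the CDC20 libraries did not overlap, with 205, 241, 246, 253 and 264 TPM with EGCG and 337, 338, 338 and 346 TPM with DMSO (log2 change -0.49 ± 0.068 SE, adjusted p = 1.59e-08). Markers of CD8 T and NK cells summed to 14.4 to 24.8 TPM with EGCG and 11.6 to 21.2 TPM with DMSO in Total cells.

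The difference between the cell types in the EGCG response was itself tested. In Total cells 23 of 42 genes responded lower in Th17p than in Th17n cells and none responded higher by limma, where 7.55% of tested genes were lower and 12.4% higher. In Div.1 cells 24 were lower and none higher, where 8.38% of tested genes were lower and 9.12% higher. The difference was below 0 for all 42 genes in Total cells, with a median of -0.29 against 0.031 over all genes, and for 38 of 42 in Div.1 cells. At an unadjusted p under 0.05, 26 were lower and 0 higher in Total cells, and 28 lower and 1 higher in Div.1 cells. The differences with the smallest p in Total cells were those of CDCA3 (difference -0.41 ± 0.063 SE, adjusted p = 1.11e-06), KIF20A (-0.48), CCNB2 (-0.47) and PLK1 (-0.53). In Div.1 cells they were those of CCNB1 (difference -0.56 ± 0.10 SE, adjusted p = 4.69e-05), PLK1 (-0.52), BUB1B (-0.43) and KIF11 (-0.58). Of the passenger complex all 4 genes differed in Total cells, and of the entry genes 8 of 12 in each sort. Over the 42 genes the changes in the cell types went with each other in Total cells, with Pearson r = 0.89 and Spearman rho = 0.75, given as a description across genes.

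**Figure D2:**
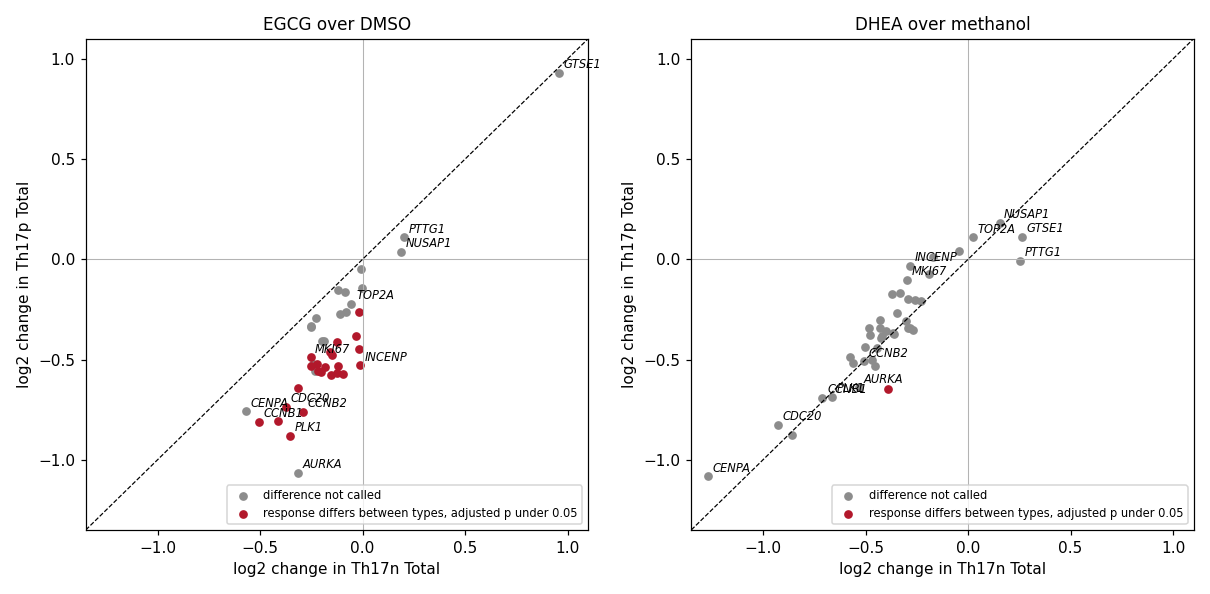
Log2 change of each of the 42 genes in Th17p Total cells (vertical axis) against that in Th17n Total cells (horizontal axis), for EGCG over DMSO and for DHEA over methanol; each point is 1 gene, the line marks equal change and red points are genes whose response differed between the types. With EGCG all 42 points lie under the line and 23 are red, and with DHEA 1 is red.

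Most of the genes fell with DHEA in both cell types. In Th17p cells 32 of 42 fell in Total and 31 in Div.1 cells, where 26.8% and 19.2% of tested genes fell, and 0 and 3 rose by limma, where 20.9% and 18.1% rose (at an unadjusted p under 0.05, 1 and 3 rose; after rescaling, 3 and 3). In Th17n cells 36 fell in Total and 26 in Div.1 cells, where 25.3% and 14.6% of tested genes fell, and 2 and 3 rose, where 20.8% and 22.1% rose. The medians of the 42 were -0.35 and -0.26 in Th17p Total and Div.1 cells and -0.38 and -0.24 in Th17n Total and Div.1 cells, against -0.017, 0.0045, -0.0077 and 0.048 over all genes. Groups were apart, with all DHEA libraries lower, for 26 and 21 genes in Th17p Total and Div.1 cells and for 31 and 23 in Th17n Total and Div.1 cells, against 19.2%, 12.4%, 18.7% and 8.32% of tested genes.

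CDC20 fell in every sort and type. It had 164, 167, 169, 175 and 197 TPM in Th17p DHEA Total libraries and 291, 304, 309, 315 and 329 TPM in methanol ones (log2 change -0.83 ± 0.064 SE, adjusted p = 9.90e-18). In Th17n Total cells it had 163, 175, 178, 195 and 208 TPM with DHEA and 335, 339, 342, 347 and 385 TPM with methanol (log2 change -0.93 ± 0.064 SE, adjusted p = 9.90e-20). In both types every DHEA library was lower. PLK1 had 106, 109, 110.4, 115 and 116 TPM in Th17p DHEA Total libraries and 163, 177, 180.4, 181 and 198 TPM in methanol ones (log2 change -0.69 ± 0.065 SE, adjusted p = 3.89e-14). In Th17n Total cells PLK1 ranged over 96.01 to 122 TPM with DHEA and 150.0 to 183 TPM with methanol (log2 change -0.66 ± 0.065 SE, adjusted p = 1.59e-13). CCNB1 changed by -0.69, -0.48, -0.71 and -0.54 in Th17p Total, Th17p Div.1, Th17n Total and Th17n Div.1 cells, all called, and it had 172, 187, 194, 202 and 222 TPM in Th17n DHEA Total libraries against 303, 308, 313, 321 and 354 TPM in methanol ones. CDK1 had 104, 114, 121, 121 and 134 TPM in Th17n DHEA Total libraries and 141, 143, 148, 151 and 164 TPM in methanol ones (log2 change -0.33 ± 0.055 SE, adjusted p = 6.34e-07), and it fell in the other 3 comparisons too. CCNA2, in the same cells, had 194, 206, 209.7, 212 and 239.6 TPM with DHEA and 291, 315, 317, 321 and 339 TPM with methanol (log2 change -0.58 ± 0.058 SE, adjusted p = 3.76e-13). TPX2 fell in all 4, with -0.45 in Th17p Div.1 and -0.50 in Th17n Total cells.

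In each of the 4 DHEA comparisons CENPA had the largest decrease of the genes called. It had 6.53, 11.6, 14.02, 16.2 and 22.2 TPM in Th17n DHEA Total libraries and 24.9, 26.5, 35.4, 37.1 and 45.8 TPM in methanol ones (log2 change -1.27 ± 0.24 SE, adjusted p = 8.51e-06). Its libraries spread widely within each group, and DHEA and methanol libraries did not overlap, all DHEA ones being lower. In Th17p Total cells it changed by -1.08, and in Div.1 cells by -0.73 in Th17p and -1.03 in Th17n. HMMR had 33.1, 34.1, 34.2, 36.04 and 40.9 TPM in Th17p DHEA Total libraries and 56.5, 67.99, 68.02, 68.5 and 70.6 TPM in methanol ones (log2 change -0.88 ± 0.071 SE, adjusted p = 7.34e-17). The groups were apart, and in Th17n Total cells the change was -0.86. All 8 checkpoint and kinetochore genes fell in Total cells of both types. BUB3, among them, had 217, 219.9, 226, 229.9 and 247 TPM in Th17n DHEA Total libraries and 259, 260.4, 261, 266 and 292 TPM in methanol ones (log2 change -0.23 ± 0.039 SE, adjusted p = 1.02e-06). All 5 DHEA libraries were lower, by little. CENPE changed by -0.50 and -0.47 in Th17p and Th17n Total cells with DHEA, both called, and by -0.16 and -0.084 with EGCG, neither called. All 5 cytokinesis genes fell in Total cells of both types, PRC1 with changes of -0.52 in Th17p and -0.56 in Th17n cells.

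AURKB and MKI67 fell in 4 of 4 EGCG comparisons and in 2 of 4 DHEA ones. MKI67 had 28.5, 29.7, 32.4, 32.7 and 33.7 TPM in Th17p DHEA Total libraries and 30.9, 34.2, 34.3, 34.6 and 34.6 TPM in methanol ones, not called (log2 change -0.10 ± 0.059 SE, adjusted p = 0.152). Its call in Th17p Div.1 cells, at -0.16, was lost without any one of 4 of the 10 libraries. FOXM1 was called with DHEA only in Th17n Total cells (log2 change -0.19 ± 0.08 SE, adjusted p = 0.0448), and there the call was lost without any one of 6 of the 10 libraries. No test set EGCG against DHEA, since dose and solvent differed. Markers of CD8 T and NK cells, mostly CD8B1, NKG7 and KLRD1, summed to 32.7 to 47.1 TPM in Th17n DHEA Total libraries and 18.2 to 26.4 TPM in methanol ones, and to 24.5 to 34.96 TPM with DHEA and 15.1 to 24.3 TPM with methanol in Th17p Total cells. B cell markers summed to 2.28 to 5.61 TPM in Th17n DHEA Total libraries and 0.996 to 1.85 TPM in methanol ones, and to 1.205 to 2.82 TPM with DHEA and 0.445 to 1.09 TPM with methanol in Th17p Total cells. In Div.1 cells they summed to 3.38 to 4.45 TPM with DHEA and 1.17 to 2.24 TPM with methanol in Th17n cells, and to 1.197 to 2.29 TPM with DHEA and 0.438 to 1.38 TPM with methanol in Th17p cells. DHEA and methanol libraries overlapped in the last of these comparisons alone. The part of either in these results was not tested.

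The DHEA response was called different between the cell types for few of the genes. In Total cells it was called different for 1 of the 42 genes, NEK2 (difference -0.26 ± 0.092 SE, adjusted p = 0.0431), where 14.8% of tested genes differed, and the call was lost without any one of 14 of the 20 libraries. In Div.1 cells it was called different for 2, PTTG1 (difference -0.41 ± 0.096 SE, adjusted p = 0.00125) and TPX2 (difference -0.20 ± 0.073 SE, adjusted p = 0.0459), where 15.9% of tested genes differed, and that of TPX2 was lost without any one of 12 of the 20 libraries. For PLK1 the difference in Total cells was -0.021 (95% interval -0.21 to 0.16) and for CDC20 0.10 (95% interval -0.079 to 0.28), neither called. Differences between the sorts were also few. With EGCG the Div.1 response was lower than the Total one in Th17p cells for BUB3 (-0.23), UBE2C (-0.35) and CDC25B (-0.44), where 2.57% of tested genes differed in either direction. The call of CDC25B was lost without any one of 9 of the 19 libraries and that of UBE2C without any one of 6. In Th17n cells it differed for 3 of 42 genes (7.14%), under the 13.3% of tested genes, namely MAD2L1 (0.31), NUSAP1 (-0.35) and HMMR (0.29). There the call of NUSAP1 was lost without any one of 13 of the 19 libraries and that of HMMR without any one of 12. With DHEA the Div.1 response was higher in Th17p cells for MAD2L1 (0.34), CCNA2 (0.27) and HMMR (0.33), where 9.91% of tested genes differed, and the call of HMMR was lost without any one of 4 of the 20 libraries and that of CCNA2 without 1. In Th17n cells it was higher for 7 genes, led by HMMR (0.45), TPX2 (0.26), PTTG1 (0.34) and BUB1 (0.35), where 6.79% of tested genes differed, and for between 1 and 12 genes when 1 library was left out. Of those named, BUB1 lost its call without any one of 8 of the 20 libraries, PTTG1 of 4 and TPX2 of 3.

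**Figure D3:**
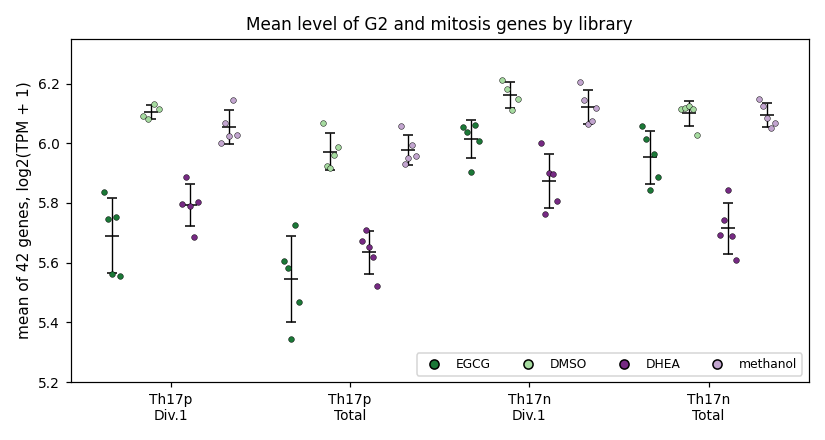
Mean log2(TPM + 1) over the 42 genes (vertical axis, not from 0) in each of the 78 libraries, by cell type and sort on the horizontal axis, each compound left of its solvent; each point is 1 library, and bars give the mean ± SD of a group. Th17p EGCG Total libraries run from 5.34 to 5.72, under the DMSO ones at 5.92 to 6.07, and Th17n EGCG Total libraries run from 5.84 to 6.06, next to DMSO ones at 6.03 to 6.13.

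Across the 8 comparisons of a compound with its solvent, 11 genes fell in all 8: BIRC5, CCNB1, CCNB2, CDC20, CDCA3, CDCA8, NEK2, PLK1, PRC1, TPX2 and UBE2C. Another 7 fell in 7 of 8, and 26 fell in at least 6. After rescaling 16 fell in all 8. With EGCG 13 fell in all 4 comparisons, and with DHEA 24. In any single one of the 8, between 6.77% and 26.8% of all tested genes fell. The share of all tested genes that fell in several comparisons at once was not counted, so these counts only describe the 42. Comparisons of the same type and compound in Total and Div.1 cells draw on overlapping cells, so the 8 are not independent. Within Th17p Total cells the changes of the 42 genes with EGCG and with DHEA, which share no library, had Pearson r = 0.64 and Spearman rho = 0.64 across genes, and within Th17n Total cells 0.73 and 0.62.

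**Figure D4:**
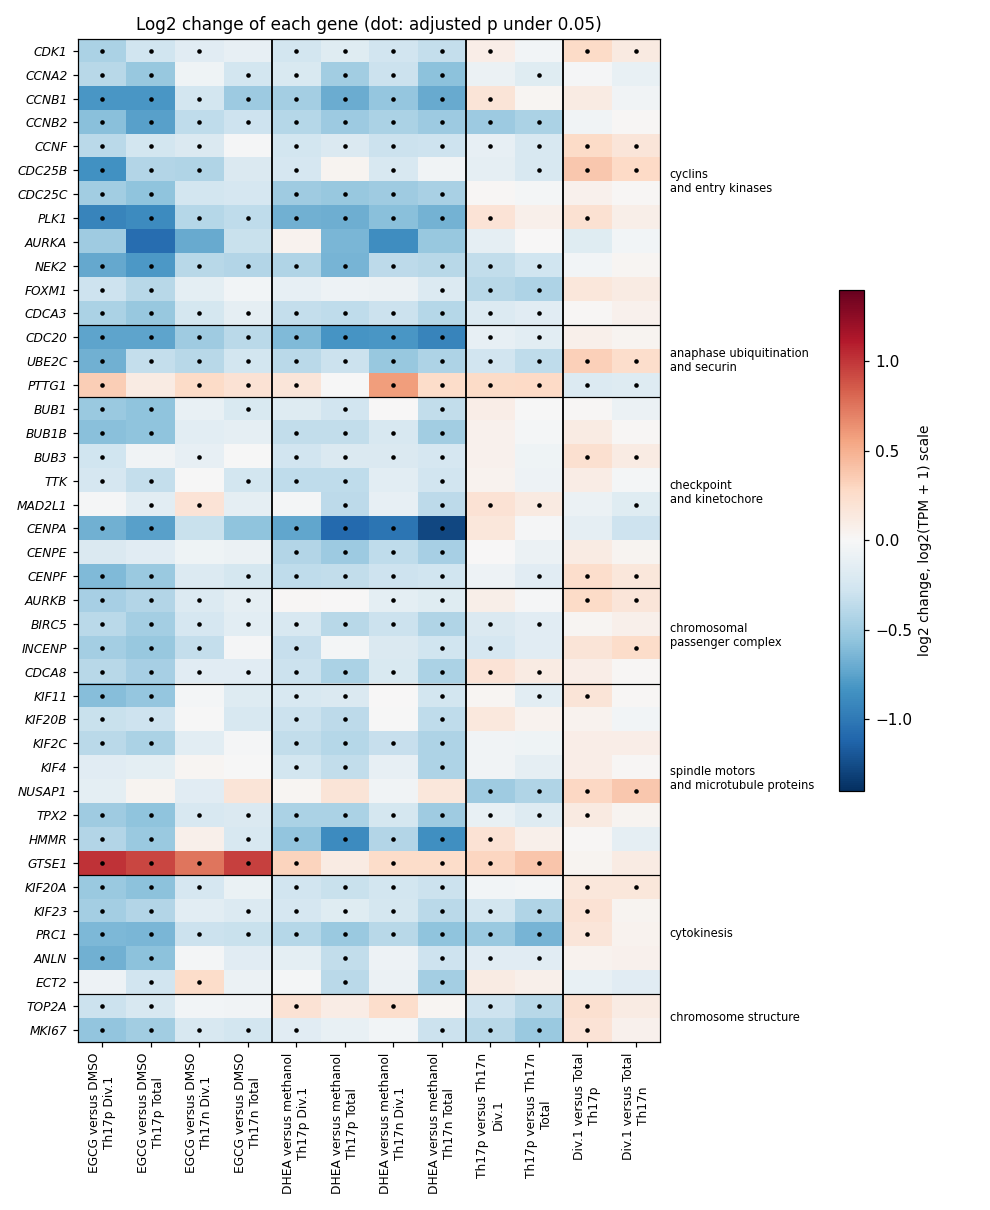
Log2 change, on the log2(TPM + 1) scale (colour, blue lower and red higher), of each of the 42 genes (rows, ordered by role) in 12 comparisons (columns); a dot marks an adjusted p under 0.05. The 8 compound comparisons are blue for most genes, with red for GTSE1 and, in 6 of the 8 as called, PTTG1.

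The genes that went the other way were few. GTSE1, which binds microtubules and in human cells is known to hold down p53 after G2, rose in 7 of 8 comparisons. It had 113, 117, 120.0, 120.4 and 132 TPM in Th17p EGCG Total libraries and 53.3, 58.4, 63.5, 69.7 and 70.03 TPM in DMSO ones (log2 change 0.93 ± 0.069 SE, adjusted p = 1.36e-18). In Th17n Total cells it had 92.2, 94.98, 98.1, 99.8 and 105 TPM with EGCG and 47.1, 48.3, 48.9, 52.5 and 53.4 TPM with DMSO (log2 change 0.96 ± 0.069 SE, adjusted p = 2.16e-18). In both types the groups were far apart, and in Div.1 cells the changes were 1.02 in Th17p and 0.75 in Th17n. With DHEA GTSE1 changed by 0.11 in Th17p Total cells, not called, and by 0.31, 0.26 and 0.26 in Th17p Div.1, Th17n Total and Th17n Div.1 cells, all called. PTTG1 (securin, which restrains separase until anaphase) rose in 6 of 8. It had 66.1, 68.9, 74.1, 77.4 and 80.8 TPM in Th17n DHEA Div.1 libraries and 43.5, 46.4, 48.6, 49.7 and 54.4 TPM in methanol ones (log2 change 0.59 ± 0.068 SE, adjusted p = 1.20e-10). With EGCG it changed by 0.35 in Th17p Div.1 cells, called, and by 0.11 in Th17p Total cells, not called. After rescaling of the libraries PTTG1 rose in 4 of 8 and GTSE1 in 8. TOP2A rose with DHEA in Div.1 cells, with 177, 199, 200.4, 204 and 228 TPM in Th17n DHEA libraries and 159, 159.6, 169, 178 and 183 TPM in methanol ones (log2 change 0.25 ± 0.063 SE, adjusted p = 0.00121), and changed by 0.20 in Th17p Div.1 cells, where the call was lost without replicate 10 of the methanol group. MAD2L1, a spindle checkpoint protein, and ECT2 rose with EGCG in Th17n Div.1 cells (0.19 and 0.26), which neither did after rescaling. NUSAP1 was called in none of the 8 before rescaling, with 29.5 to 41.4 TPM in Th17p EGCG Total libraries and 30.1 to 37.6 TPM in DMSO ones.

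Between the cell types in solvent, 4 of the 42 genes were higher and 19 lower in Th17p than in Th17n Total cells, where 30.9% of tested genes were higher and 26.5% lower. In Div.1 cells 8 were higher and 16 lower, where 34.9% were higher and 25.7% lower. PRC1 had 61.9, 62.97, 64.3, 64.9 and 72.1 TPM in Th17p DMSO Total libraries and 97.6, 100.2, 102, 102 and 107 TPM in Th17n ones, and over both solvents its change was -0.65 ± 0.051 SE (adjusted p = 1.62e-18). MKI67 ranged over 29.6 to 34.8 TPM in Th17p DMSO Total libraries and 44.5 to 48.2 TPM in Th17n ones (log2 change -0.51 ± 0.042 SE, adjusted p = 9.37e-18). CCNB2 (-0.44), TOP2A (-0.39) and KIF23 (-0.42) were also lower in Th17p cells, as was FOXM1 (-0.43). GTSE1 was higher, at 0.39. CDK1, CCNB1, PLK1 and BUB3 were called in neither direction in Total cells, with changes of -0.043, 0.023, 0.067 and -0.06. In Div.1 cells CCNB2 (-0.50), PRC1 (-0.52), NUSAP1 (-0.50), MKI67 (-0.39), FOXM1 (-0.39) and NEK2 (-0.35) were lower, and PLK1 (0.19), CCNB1 (0.18) and CDK1 (0.098) were higher. The call of CDK1 was lost after rescaling and without any one of 7 of the 18 libraries, and that of CDC20, lower at -0.12, without any one of 4 of the 18.

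Cells sorted after 1 division differed from unsorted cells in some of the genes. In Div.1 cells of the Th17p type 16 of 42 were higher and 1 lower than in Total cells, where 8.63% of tested genes were higher and 10.8% lower. In Th17n cells 10 were higher and 2 lower, where 5.8% were higher and 16.1% lower, and 17 were higher after rescaling, which turned the split of all called genes from 619 higher and 1718 lower into 1074 and 1187. Groups did not overlap for 4 genes in Th17p cells, all higher in Div.1 cells, against 0.422% of tested genes. BUB3 had 295, 302, 302 and 307 TPM in Th17p DMSO Div.1 libraries and 226, 240.1, 246, 249 and 265 TPM in Total ones (log2 change 0.23 ± 0.028 SE, adjusted p = 1.24e-08, over both solvents). UBE2C averaged 728 ± 22.5 TPM in Th17p DMSO Div.1 libraries and 548 ± 29.7 TPM in Total ones (SD, n = 4 and n = 5), with a change of 0.34 in Th17p and 0.25 in Th17n cells. AURKB, CDK1, CCNF and CDC25B were higher in Div.1 cells of both types, with changes of 0.27, 0.26, 0.27 and 0.38 in Th17p cells. NUSAP1 had the smallest p in Th17n cells (log2 change 0.38 ± 0.061 SE, adjusted p = 2.89e-06). PTTG1 was lower in Div.1 cells of both types (-0.19 in Th17p, -0.18 in Th17n). CCNB1 (0.11), CDC20 (0.07) and CCNA2 (-0.012) were not called in Th17p cells.

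Other genes of the same machinery were read from lists of textbook members. Beside their counts, 14.9% of all tested genes fell and 30.1% rose with EGCG in Th17p Total cells, and 13.5% and 21.7% in Th17n Total cells. With DHEA 26.8% fell and 20.9% rose in Th17p Total cells, and 25.3% and 20.8% in Th17n Total cells. Of 34 further spindle, microtubule and mitotic genes, 25 fell and 1 rose with EGCG in Th17p Total cells, 18 fell and 1 rose in Th17n Total cells, and with DHEA 26 fell and 1 rose in Th17p and 27 fell and 2 rose in Th17n Total cells. They included the tubulins TUBA1B (-0.35) and TUBB4B (-0.48) and, as the one that rose with EGCG, PSRC1, a p53-regulated spindle protein (2.53 in Th17p and 2.77 in Th17n Total cells). Of 32 kinetochore genes outside the 42, 11 fell (34.4%) and 6 rose (18.8%) with EGCG in Th17p Total cells. SKA1, which couples kinetochores to microtubules, changed by -0.65 and CENPM by 0.69, both called. Of 17 condensin and cohesin genes 12 fell and 1 rose in the same comparison, with SMC3 at -0.42. Of 17 subunits and regulators of the anaphase-promoting complex itself, 2 fell (11.8%) and 5 rose (29.4%) with EGCG in Th17p Total cells, close to the shares of all genes, and 10 fell (58.8%) with DHEA in Th17n Total cells. FZR1, which takes over from CDC20 after anaphase, rose in Th17p cells with EGCG (0.55 in Total cells) and fell in Th17n cells (-0.68), and its response differed between the types (difference 1.23 ± 0.24 SE, adjusted p = 6.96e-05). FZR1 went the same ways with DHEA, at 0.43 in Th17p and -0.80 in Th17n Total cells (difference 1.24 ± 0.24 SE, adjusted p = 7.91e-05). Of 34 G1 and S phase genes 19 fell and 3 rose with EGCG in Th17p Total cells, and 6 fell and 6 rose in Th17n Total cells (17.6% each), near the shares of all genes. With DHEA the counts were 14 and 4 in Th17p and 11 and 2 in Th17n Total cells. CCND2 (cyclin D2) changed by 0.78 and RFC3, a clamp loader, by -0.92 with EGCG in Th17p Total cells.

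Regulators upstream of the 42 genes did not all move one way. CDKN1A, the p21 inhibitor of cyclin-dependent kinases, averaged 464 ± 41.3 TPM in Th17p EGCG Total libraries and 60.5 ± 14.7 TPM in DMSO ones (SD, n = 5 each; log2 change 2.95 ± 0.17 SE, adjusted p = 3.45e-24). In Th17n Total cells it averaged 211 ± 22.8 TPM with EGCG and 18.7 ± 4.78 TPM with DMSO (log2 change 3.45 ± 0.17 SE, adjusted p = 1.66e-26). With DHEA it rose by 0.86 in Th17p and 2.02 in Th17n Total cells. Its increase with EGCG was called different between the types in neither sort (difference -0.50 ± 0.24 SE, adjusted p = 0.136 in Total cells). Its increase with DHEA was smaller in Th17p than in Th17n Total cells (difference -1.16 ± 0.24 SE, adjusted p = 1.94e-04) and not called different in Div.1 cells. Of 26 p53 target genes tested, CDKN1A among them, 22 rose with EGCG in Th17p Total cells and 18 in Th17n ones, where 30.1% and 21.7% of all genes rose, and with DHEA 17 rose and 2 fell in Th17p and 16 rose and 1 fell in Th17n Total cells, where 20.9% and 20.8% of all genes rose. ZMAT3 (2.04) and BAX (1.13) were among those that rose with EGCG in Th17p Total cells. Of 12 genes of the DREAM and MuvB complexes, 3 rose (25%) and 0 fell in that comparison, where 30.1% of all genes rose, with RBL2 (p130) at 0.58. MYBL2, which drives these genes as part of MuvB, was not called with EGCG (log2 change -0.45 ± 0.22 SE, adjusted p = 0.0919 in Th17p Total cells) and fell with DHEA in Th17n Total cells (log2 change -1.19 ± 0.22 SE, adjusted p = 6.07e-06). Its change with EGCG had the opposite sign in Th17p Div.1 cells (log2 change 0.51 ± 0.23 SE, adjusted p = 0.0684). WEE1 and PKMYT1, which restrain CDK1, changed by 0.024 and -0.12 in Th17p and by -0.46 and 0.18 in Th17n EGCG Total cells, the Th17n values called and the Th17p ones not. WEE1 was also called with DHEA in Th17p Total (0.45), Th17p Div.1 (0.60) and Th17n Total cells (-0.41), and with EGCG in Th17n Div.1 cells (-0.37). PKMYT1 was also called with DHEA in Th17p Total (0.21) and Th17n Div.1 cells (0.16), and with EGCG in Th17p Div.1 cells (-0.23). Of 16 genes that brake the cycle or its entry into mitosis, CDKN1A among them, 5 rose (31.2%) and 2 fell (12.5%) with EGCG in Th17p Total cells, close to the shares of all genes, and 8 rose (50%) and 2 fell in Th17n Total cells. GADD45A, a stress gene that can hold cells in G2, was called in 1 of the 8 compound comparisons, lower with DHEA in Th17n Div.1 cells (log2 change -0.56 ± 0.21 SE, adjusted p = 0.0311). Its level was near the floor, with group means of 0.229 to 1.08 TPM. In the comparison called it averaged 0.467 ± 0.499 TPM with DHEA and 1.08 ± 0.282 TPM with methanol (SD, n = 5 each).

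**Figure D5:**
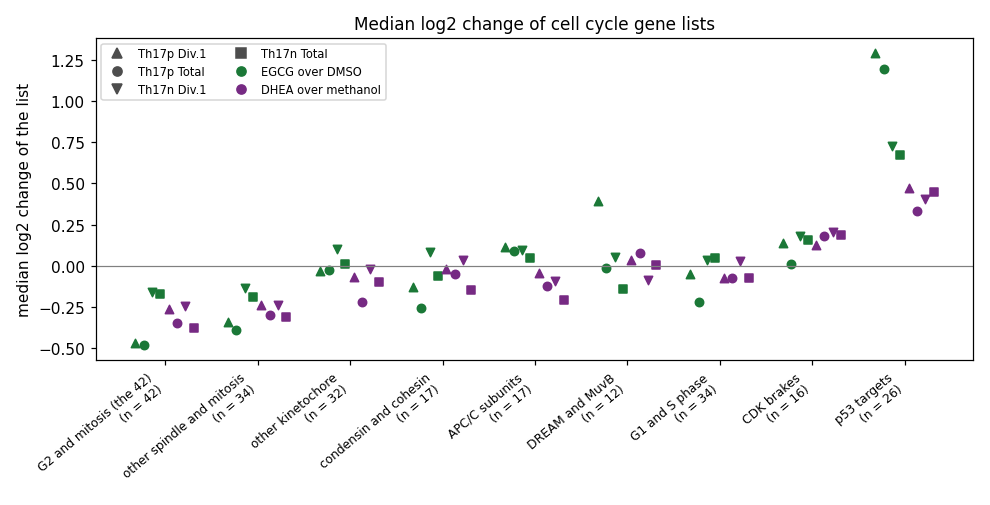
Median log2 change (vertical axis, log2(TPM + 1) scale) of the 42 genes and of 8 related gene lists (horizontal axis, with the number tested) in the 8 compound comparisons; marker shape gives the type and sort and colour the compound. The 42 genes lie between -0.48 and -0.16, and the p53 targets between 0.34 and 1.30.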

How the data were processed

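RNA of 79 libraries was captured by polyA tail and sequenced on an Illumina instrument, per the labels' protocols. Reads were processed with Trimmomatic and kallisto on mm10, per the submitters' processing notes, with versions and settings not given in the sources used here. The authors deposited 1 table in TPM, transcript abundance scaled for length and library, with 1 value per gene symbol. How transcripts were summed to symbols is not stated, columns summed to between 880077 and 895017, and reads shared by near-identical genes cannot be resolved. TPM keep no read counts, so depth and counting error are unknown.

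Groups came from the library titles, and the replicate numbers are well columns. Genes were kept when 4 or more libraries had a TPM of 1 or higher (10672 of 20465), taken as log2(TPM + 1) and fitted in limma 3.58.1 (R 4.3.3) with 16 group means, empirical Bayes moderation and a trend. The 20 comparisons were two-sided and adjusted by Benjamini-Hochberg over all genes within a comparison, with calls at an adjusted p under 0.05. Solvents were averaged when types or sorts were compared. The procedure was tested on simulated data. A marker gene of the T and Th17 list is not reported here. Alternatives were a pseudocount of 0.1, no filter, rescaling by the median ratio, a fit on the compared groups alone, a replicate block, keeping well A4 under its label, leaving out the wells of columns 1 and 10, and leaving out each library in turn.

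The 42 genes, the lists (G1 and S phase, kinetochore, condensin and cohesin, anaphase-promoting complex, DREAM and MuvB, spindle, brakes, p53 targets) and the tests were chosen with earlier results of these data known. Values are given for CDK1, CCNB1, PLK1, CDC20, CCNA2, MKI67, TOP2A, FOXM1 and BUB3, for the 6 genes with the smallest p per comparison (4 for differences between responses), for others of the 42 picked after their values were seen, and for some of the 4 smallest p of each list and 6 regulators. Gene positions are from an mm10 annotation, and sequences from RefSeq on GRCm38.p6. Tables were made with numpy 2.4.6 and pandas 2.3.3 under Python 3.11.15, and figures with matplotlib 3.10.9.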

Additional observations from a re-analysis of the deposited data

Results flagged for a closer look

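The response to EGCG differed between the cell types, by the test of the difference itself, for 23 of the 42 genes in Total cells and for 24 in Div.1 cells, in each case with the lower change in Th17p cells. Of all tested genes 7.55% in Total and 8.38% in Div.1 cells had the lower change in Th17p cells. The response to DHEA differed between the types for 1 gene in Total and 2 genes in Div.1 cells, where 14.8% and 15.9% of all tested genes differed. Between the sorts the EGCG response differed for 3 genes in Th17p and 3 in Th17n cells, where 2.57% and 13.3% of all tested genes differed. The DHEA response differed between the sorts for 3 in Th17p and 7 in Th17n cells, where 9.91% and 6.79% of all tested genes differed.

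A library far from the others of its group was looked for in 160 combinations of group and gene (or the mean of the 42 genes), and 9 were found, where chance gives about 1 in 20. For the mean log2(TPM + 1) of the 42 genes, replicate 5 of the Th17n DMSO Total group was at 6.03 and the others at 6.12 to 6.13. Replicate 5 of the Th17p EGCG Total group had 106 TPM of CDK1, the others 122 to 127 TPM. Replicate 4 of that group had 122.7 TPM of TOP2A, the others 94.9 to 100.1 TPM. CCNB1 was at 324 TPM in replicate 6 of the Th17p methanol Div.1 group, the others at 355 to 360.1 TPM. CDC20 was at 346 TPM in replicate 1 of the Th17n DMSO Div.1 group, the others at 337 to 338 TPM. In replicate 10 of the Th17n methanol Total group CDC20 was at 385 TPM, the others at 335 to 347 TPM, and BUB3 at 292 TPM, the others at 259 to 266 TPM. CCNA2 was at 300.3 TPM in replicate 1 of the Th17p DMSO Total group, the others at 264 to 271 TPM. MKI67 was at 30.9 TPM in replicate 8 of the Th17p methanol Total group, the others at 34.2 to 34.6 TPM.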

How the results depend on the processing

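The counts of genes that fell stayed within 1.5 times under all alternatives in 6 of the 8 compound comparisons. The exceptions were EGCG in Th17n Total cells, 19 genes lower and 11 to 21 when 1 library was left out, and EGCG in Th17n Div.1 cells, 19 and 29 after rescaling. Counts of genes that rose were small. For DHEA in Th17p Total cells the count was 0, against 3 rescaled, 1 with the groups alone, 1 without columns 1 and 10 and 0 to 1 with a library left out. For DHEA in Th17p Div.1 cells it was 3, against 1 with the groups alone. For EGCG in Th17n Total cells it was 2, against 1 rescaled, with the groups alone or without columns 1 and 10, and 1 to 3 with a library left out. For EGCG in Th17n Div.1 cells it was 4, against 1 rescaled and 2 with well A4. Between Div.1 and Total cells, Th17p genes lower were 1, against 2 with the groups alone. Th17n genes higher were 10, against 17 rescaled, and Th17n genes lower were 2, against 4 with the groups alone and 5 with the replicate block.

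The number of genes whose EGCG response differed between the types stayed at 16 to 29 under all alternatives. Other counts of differing responses moved. EGCG between sorts in Th17p cells gave 3 genes, against 1 to 3 with a library left out. In Th17n cells it gave 3, against 1 without a filter, with the groups alone or with well A4, 7 rescaled, 6 with the replicate block and 1 to 4 with a library left out. DHEA between types in Total cells gave 1, against 0 without a filter, with well A4 or without columns 1 and 10, 2 rescaled or with the groups alone, 4 with the replicate block and 0 to 2 with a library left out. In Div.1 cells it gave 2, against 1 without a filter, with the groups alone, with well A4 or without columns 1 and 10, and 1 to 2 with a library left out. DHEA between sorts in Th17n cells gave 7, against 3 without a filter, 1 rescaled or with the groups alone, 11 with the replicate block, 4 without columns 1 and 10 and 1 to 12 with a library left out.

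Over all genes, rescaling changed the split of differing responses. EGCG between types in Total cells had 1321 higher and 806 lower, and 1206 and 1124 rescaled. EGCG between sorts had 144 and 130 in Th17p cells (127 and 246 rescaled) and 1150 and 270 in Th17n cells (785 and 715). DHEA between sorts had 598 and 460 in Th17p cells (487 and 676) and 546 and 179 in Th17n cells (220 and 331). The causes were not tested.

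Some changes that were not called turned sign near 0 when a library was left out. With EGCG in Th17n Total cells FOXM1 then ran from -0.13 to 0.021 (0.011 in another omission) and BUB3 from -0.022 to 0.010 (0.00098). With DHEA TOP2A ran from -0.011 to 0.047 in Th17n Total cells, and MKI67 from -0.069 to 0.0068 in Th17n Div.1 cells. Between sorts in Th17p cells CCNA2 ran from -0.027 to 0.0053 and was at 0.000921 without columns 1 and 10. With well A4, TOP2A was at 0.021 with EGCG in Th17n Div.1 cells. Same-numbered libraries were not treated as paired in the main fit, since no label ties a library to a mouse. They exceeded a correlation of 0.1 in 25 of 74 pairs. They correlated best with their own number in 62 of 74, against about 16 if the numbers were unrelated. Libraries of the same number were thus more alike than others, which the p-values of the main fit leave out and the replicate block takes in. The replicate block moved no other count of the 42 genes by over 1.5 times. TPM carry no depth, so the counting error of low genes such as KIF20B, CENPF and ANLN is unknown.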

Other observations

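The library of well A4, labelled Th17n DMSO Div.1 and left out above, had a mean log2(TPM + 1) of 6.11 over the 42 genes and a summed level of 5073 TPM. It held 0.394 TPM of FOXP3 and 388 TPM of IL22. The 4 libraries of the Th17n DMSO Div.1 group held 71.5 to 136 TPM of FOXP3 and 0.303 to 7.36 TPM of IL22, and the 4 of the Th17p DMSO Div.1 group 0.0385 to 0.766 TPM and 264 to 380 TPM. IL17F was at 1835 TPM in the library of well A4, outside both groups. It was at 3426 to 4257 TPM in the Th17n DMSO Div.1 group and at 2007 to 2379 TPM in the Th17p one.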
